A study of Mus musculus with 7 samples.

Results

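Interleukins are the cytokines through which leukocytes, endothelium and parenchymal cells signal to each other, and the genes described here are those of the interleukins, their receptor chains, and the decoy receptors and antagonists that block them. The members were all genes of the liver count table whose symbol begins with Il and a number, leaving out Il6ra, Il6st, predicted genes and pseudogenes, which gave 82 of 56691 genes. Whole liver was sequenced from male C57BL/6J mice that were 8 weeks old when bought and were then housed for 2 weeks. LPS-treated mice received 10 mg/kg of lipopolysaccharide, a component of the outer membrane of Gram-negative bacteria, into the peritoneum and were killed 24 h later. The control group was labelled only as control, and what those mice were injected with was not stated. Each group of the study had 6 mice, and livers of 4 controls and 3 LPS-treated mice were sequenced. The study also had a group given sulforaphane before LPS, of which these data hold no samples. The data hold males only and a single time point.

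Interleukins of the IL-1 family signal when the ligand joins a binding receptor chain to an accessory chain, and their action is checked by receptor antagonists, soluble binding proteins and decoy receptors that lack a signalling domain. Most other interleukins signal through paired chains that engage JAK kinases and STAT factors, and many of these chains are shared between cytokines. In liver, resident macrophages called Kupffer cells, infiltrating leukocytes and endothelium make most interleukins, while hepatocytes carry several receptors and release soluble inhibitors during the acute phase response.

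The total count per library was 14991022, 15096573, 15721944 and 18584140 in control mice 1 to 4 and 20500391, 17095607 and 17821331 in LPS-treated mice 1 to 3. A count of 3 or fewer was taken as the detection floor, which corresponded to between 0.138 and 0.212 CPM (reads of a gene per 1e6 reads, after adjusting library sizes) depending on the library. The label of the LPS group was checked with 5 acute phase genes, Hp, Saa1, Saa2, Orm2 and Lcn2, and all 5 were higher in LPS-treated mice. Of 6 hepatocyte markers tested, 0 were higher and 1, the transthyretin gene Ttr, was lower, with Alb the most abundant of the list. The summed hepatocyte marker level was 62198, 60051, 84379 and 70864 CPM in control mice 1 to 4 and 37706, 40797 and 41189 CPM in LPS-treated mice 1 to 3. Mitochondrial genes took 23.7%, 14.6%, 7.48% and 8.96% of counts in the control libraries and 6.45%, 3.83% and 3.94% in the LPS libraries. LPS-treated mice 2 and 3 were unusually alike: the SD of their log2 ratio over 1729 genes was 0.10, whereas the other 8 pairs within a group gave 0.29 to 0.58. LPS-treated mouse 1 differed from each of them by 0.31, within the range of the control pairs. It had the highest CPM of the LPS group in 53.1% of the tested members and in 36.4% of all tested genes. The macrophage receptor gene Marco had 8889 counts in that mouse against 1032 and 1054 in LPS-treated mice 2 and 3.

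Of the 82 members, 37 stayed at the floor in every library, 13 exceeded it in at least 1 library but were too low to be tested, and 32 were tested. A gene counted as called when its log2 fold change exceeded 1 in size and its adjusted p was below 0.05. By this rule 14 members were higher in LPS-treated mice and 1 was lower, while across the 13683 genes tested 7.81% were called higher and 7.31% lower. Every LPS-treated mouse lay above every control mouse in 18 members and below in 2, against 18.1% and 17.4% of all tested genes. The median log2 fold change was 1.23 over the 32 tested members, also with Il10 and Il36g set at their lower bounds, and -0.01 over all genes tested. A member that passed the filter only through its level in LPS-treated mice had to differ, so these counts describe the tested members and are not evidence about the family. By role, 4 of 9 tested ligands, 7 of 20 tested receptor chains, the single tested decoy receptor and both tested antagonists were higher, and 1 receptor chain was lower. The members' summed level was 463, 462, 495 and 445 CPM in control mice 1 to 4 and 705, 767 and 765 CPM in LPS-treated mice 1 to 3.

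**Figure D1:**
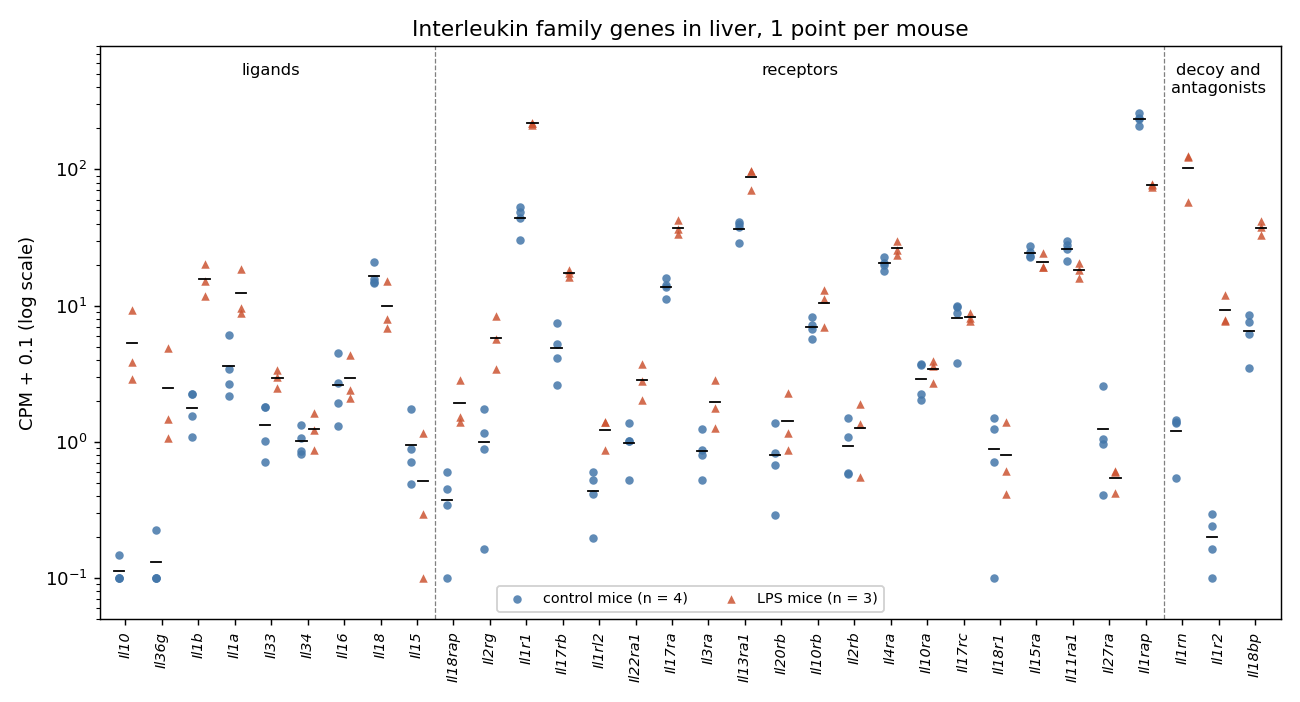
CPM of the 32 tested members on a log scale, with 0.1 added so that values of 0 can be drawn; circles are the 4 control mice, triangles are the 3 LPS-treated mice, and bars are group means. Genes are ordered by role and then by fold change, and Il1rap is the only receptor chain called lower.

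Both agonists of the IL-1 receptor were higher after LPS. Il1b, which encodes the IL-1 beta precursor that caspase-1 cleaves, had 14, 34, 35 and 30 counts in control mice 1 to 4 and 436, 233 and 187 counts in LPS-treated mice 1 to 3. The groups did not overlap, and LPS-treated mouse 1 was the highest. Its level was 1.68 ± 0.564 CPM (SD, n = 4) in control mice and 15.6 ± 4.26 CPM (SD, n = 3) in LPS-treated mice (log2 fold change 3.21, SE 0.30, adjusted p = 5.48e-06, higher in 3 of 3 mice). Il1a, whose product is an alarmin that is active without caspase-1, had 29, 95, 54 and 53 counts in control mice and 399, 147 and 140 counts in LPS-treated mice. The groups were again separate, with LPS-treated mouse 1 far above its group. Il1a rose as well, with means of 3.48 ± 1.75 and 12.2 ± 5.38 CPM (SD, 4 and 3 mice; log2 fold change 1.81, SE 0.37, adjusted p = 0.00290). Il1bos, a transcript antisense to Il1b, had at most 3 counts in any library. The libraries kept strand, but whether the counting used it is not given in the sources used here, so reads of this pair may not be told apart.

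In whole liver, more RNA of a gene can come from more cells of a type or from more RNA per cell, and these cannot be told apart. Of 13 neutrophil markers, 9 were tested and all 9 were higher in LPS-treated mice. Some of them, such as Ngp with 0 counts in every control mouse, passed the filter only through LPS-treated mice and had to differ. Among the monocyte markers below, the same holds for Chil3 and F13a1. Of the untested neutrophil genes, Elane was at 0.218 CPM in control mice and 0.214 CPM in LPS-treated mice. Ly6g and Camp had at most 7 counts in any library, and the granule gene Mpo was at the floor in every library. The neutrophil list summed to 5.24, 4.61, 2.32 and 3.53 CPM in control mice 1 to 4 and 225, 166 and 163 CPM in LPS-treated mice 1 to 3. S100a9 was the most abundant over all libraries (Csf3r in control mice). Of 5 monocyte markers, all tested, 4 were higher, and the list summed to 13.4, 10.6, 6.72 and 8.23 CPM in control mice and 78.5, 64.6 and 74.8 CPM in LPS-treated mice, with Plac8 the most abundant and none at the floor. Of 10 Kupffer cell and macrophage markers, 4 were higher (Adgre1, Marco, Cd68 and C1qb) and 1 was lower (Clec4f). This list summed to 136, 197, 179 and 122 CPM in control mice 1 to 4 and to 711, 151 and 156 CPM in LPS-treated mice 1 to 3, with none at the floor. Clec4f was the most abundant in control mice, at 54.4 CPM, and Marco in LPS-treated mice, at 181 CPM. Marco had 1032 and 1054 counts in LPS-treated mice 2 and 3, against 35 to 88 in control mice. In those LPS-treated mice other genes of the list lay below every control mouse. Cd5l had 76 and 53 counts against 341 to 713, Vsig4 56 and 31 against 122 to 195, and Timd4 1 and 10 against 41 to 86. The sum therefore does not describe these cells as a whole. LPS-treated mouse 1, the highest in Il1a, Il1b and Il10, was also far above the other mice in the sum of this list. The part of these cells in the interleukin results was not tested.

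The signalling chains of the IL-1 receptor moved in opposite directions. Il1r1, the ligand-binding chain, had 623, 775, 862 and 624 counts in control mice 1 to 4 and 4610, 3401 and 3528 counts in LPS-treated mice 1 to 3. All LPS values lay far above the control values, and once scaled the 3 LPS-treated mice were close to each other at 212, 219 and 220 CPM. The means were 44.0 ± 9.83 and 217 ± 4.0 CPM (SD, 4 and 3 mice), a 4.94-fold increase (log2 fold change 2.30, SE 0.18, adjusted p = 1.40e-06). Il1rap, the accessory chain that IL-1, IL-33 and IL-36 receptors share, was the only member called lower. It had 3378, 3278, 4223 and 4816 counts in control mice 1 to 4 and 1661, 1156 and 1244 counts in LPS-treated mice 1 to 3. The groups were separate, at 207 to 258 CPM in control mice and 74.5 to 77.4 CPM in LPS-treated mice. The log2 fold change was -1.62 (SE 0.14, adjusted p = 3.33e-06, lower in 3 of 3 mice). Il1rap also yields a soluble form by alternative splicing, and counts per gene do not separate the forms. The accessory-like genes Il1rapl1 and Il1rapl2 had 0 counts in all libraries.

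The inhibitors of IL-1 showed larger log2 fold changes than the agonists. Il1rn, which encodes the IL-1 receptor antagonist that occupies the receptor without signalling, had 19, 7, 21 and 27 counts in control mice 1 to 4 and 1256, 1924 and 2020 counts in LPS-treated mice 1 to 3. Every LPS value was well above every control value, and here LPS-treated mouse 1 was the lowest of its group, in contrast to Il1b. The mean was 1.09 ± 0.436 CPM (SD, n = 4) in control mice and 103 ± 38.7 CPM (SD, n = 3) in LPS-treated mice (log2 fold change 6.53, SE 0.35, adjusted p = 5.10e-08). Il1r2, the decoy receptor that binds IL-1 without signalling, had 2, 1, 0 and 4 counts in control mice and 169, 185 and 123 counts in LPS-treated mice. There were 7 counts in all control mice together, and no overlap. The log2 fold change of Il1r2 was 6.36 (SE 0.50, adjusted p = 1.52e-06, higher in 3 of 3 mice), and without control mouse 4 it was 6.97. The ratio of its pooled rates was 85.7, with a 95% exact interval of 41.3 to 214 that covers counting error only.

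Ratios within a mouse do not depend on the scaling of libraries. The log2 ratio of Il1rn to Il1b counts was 0.43, -2.20, -0.72 and -0.15 in control mice 1 to 4 and 1.53, 3.04 and 3.43 in LPS-treated mice 1 to 3. Every LPS-treated mouse lay above every control mouse. Because the genes differ in length, the sign of a ratio does not show which transcript was more abundant, and only the difference between groups is read. The mean difference was 3.33 on the log2 scale, from -0.66 ± 1.13 (SD, n = 4) to 2.67 ± 1.01 (SD, n = 3). The log2 ratio of Il1r2 to Il1r1 counts was -7.96, -9.01, -10.75 and -7.12 in control mice and -4.77, -4.20 and -4.84 in LPS-treated mice. The decoy stayed far below the signalling receptor in counts in every mouse, but by less in each LPS-treated mouse. The mean difference was 4.11, and 3.43 without control mouse 3, which had 0 counts of Il1r2. In a two-sided exact permutation test, each ratio gave p = 0.0286, the smallest value that the 35 arrangements of 4 and 3 mice allow, and an adjusted p = 0.0357 over the 5 ratios examined. This p is the share of arrangements with an absolute difference of means at least as large as the one found. The first run of this test doubled the smaller tail, which gave a two-sided exact p of 0.0571 and an adjusted p = 0.0714. The form with absolute differences replaced it after those values had been seen, so whether these ratios pass 0.05 depends on the convention. All 5 ratios were also chosen with earlier results of these data known, so their p-values are descriptive and not independent support. With absolute differences and 0.1 in place of 0.5 added to each count, the two-sided exact p stayed at 0.0286 for Il1rn to Il1b and was 0.0571 for Il1r2 to Il1r1, and adjustment over the 5 ratios gave 0.0714 for both; with 1 added the adjusted p was 0.0357. With 1 mouse left out, the exact permutation test could not go below 0.0667 or 0.1.

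**Figure D2:**
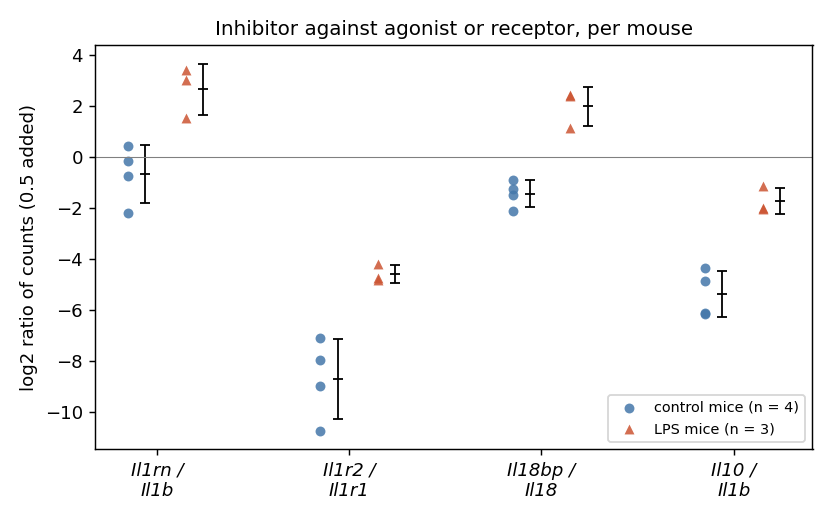
Log2 ratio of counts of an inhibitor to its agonist or signalling receptor, and of Il10 to Il1b, in each mouse, with 0.5 added to every count; circles are the 4 control mice, triangles are the 3 LPS-treated mice, and bars with whiskers are mean and SD. In all 4 ratios shown the LPS-treated mice lie above the control mice.

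In the IL-18 system the antagonist rose while the ligand did not. Il18bp, which encodes the soluble IL-18 binding protein, had 86, 119, 138 and 70 counts in control mice 1 to 4 and 711, 646 and 601 counts in LPS-treated mice 1 to 3. The 3 LPS-treated mice were close to each other and far above the controls. The means were 6.35 ± 2.2 and 37.3 ± 4.43 CPM (SD, 4 and 3 mice; log2 fold change 2.56, SE 0.25, adjusted p = 9.52e-06). Il18, an IL-1 family ligand that caspase-1 also matures, stood at 14.6, 20.9, 15.6 and 14.9 CPM in control mice and at 15, 7.92 and 6.79 CPM in LPS-treated mice. LPS-treated mouse 1 lay within the control range and the other LPS-treated mice lay below it. The difference was not called (log2 fold change -0.73, SE 0.26, adjusted p = 0.0588), but without LPS-treated mouse 1 it was -1.16 with an adjusted p of 0.00314 in edgeR's test and was called. The log2 ratio of Il18bp to Il18 counts was -1.26, -1.47, -0.89 and -2.13 in control mice and 1.13, 2.39 and 2.46 in LPS-treated mice. The groups did not overlap, with a mean difference of 3.43 on the log2 scale with the same exact p, two-sided, of 0.0286, or 0.0571 with the smaller tail doubled.

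The IL-18 receptor chains were both low. Il18rap, the accessory chain, had 5, 8, 0 and 5 counts in control mice 1 to 4 and 59, 20 and 23 counts in LPS-treated mice 1 to 3, with no overlap. Its log2 fold change was 2.71 (SE 0.73, adjusted p = 0.0161), but the call was lost without LPS-treated mouse 1, at 2.29 with an adjusted p of 0.088. Il18r1, the ligand-binding chain, had 16, 22, 10 and 0 counts in control mice and 11, 20 and 5 counts in LPS-treated mice. The groups overlapped (log2 fold change -0.14, SE 0.93, adjusted p = 0.933), and the sign turned when control mouse 1, control mouse 2, LPS-treated mouse 1 or LPS-treated mouse 3 was left out, to between 0.06 and 0.29.

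IL-33 is a nuclear alarmin, and its receptor ST2 is encoded by Il1rl1. Il33 had 13, 27, 10 and 35 counts in control mice 1 to 4 and 52, 45 and 52 counts in LPS-treated mice 1 to 3. After scaling every LPS-treated mouse lay above every control mouse, with a log2 fold change of 1.19 (SE 0.45), which was not called (adjusted p = 0.0673). With DESeq2 it was called, at 1.20 with an adjusted p of 0.0344. Il1rl1 stayed at the floor, with 2 counts in LPS-treated mouse 2 and 0 in the other libraries, so the ratio of Il1rl1 to Il33 (mean difference -0.60, two-sided exact permutation p = 0.514) holds no information on the receptor.

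The IL-36 ligands signal through the receptor encoded by Il1rl2 together with the chain from Il1rap. Il36g, the gene of IL-36 gamma, had 0, 2, 0 and 0 counts in control mice 1 to 4 and 104, 15 and 22 counts in LPS-treated mice 1 to 3. The groups were separate, and LPS-treated mouse 1 held most of the counts. The ratio of pooled rates was 88.7, with a 95% exact interval of 24.1 to 739 for counting error only, and the LPS mean was 13 times the level that 3 counts in each control library would give, or 6.4 times without LPS-treated mouse 1. The call had an adjusted p = 7.27e-04 with 3 of 3 mice higher. The fitted log2 fold change was 6.01, and moved to 4.96 without LPS-treated mouse 1 and to 8.39 without control mouse 2. Il36a, Il36b and the antagonist gene Il36rn had 0 counts throughout, as had Il1f10, the gene of IL-38. Il1rl2 had 7, 5, 7 and 2 counts in control mice and 28, 12 and 21 counts in LPS-treated mice. These groups did not overlap, yet the log2 fold change of 1.77 (SE 0.64) was not called (adjusted p = 0.0609), whereas DESeq2 called it at 1.79 with an adjusted p of 0.0449.

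Il10, which encodes the main anti-inflammatory interleukin of macrophages, was close to undetected in control mice. It had 0, 0, 0 and 1 count in control mice 1 to 4 and 200, 58 and 45 counts in LPS-treated mice 1 to 3. The groups were separate, and LPS-treated mouse 1 had most of the counts. The ratio of pooled rates was 381, with a 95% exact interval of 67.9 to 15103 for counting error only, and the LPS mean of 5.25 ± 3.47 CPM (SD, n = 3) was 28.8 times the level of 3 counts in each control library, or 17.9 times without LPS-treated mouse 1. The gene was called higher (adjusted p = 1.23e-05). The fitted log2 fold change of 7.91 rests on the single control count: it was 9.45 without control mouse 4, and 7.20 without LPS-treated mouse 1. The log2 ratio of Il10 to Il1b counts was -4.86, -6.11, -6.15 and -4.35 in control mice and -1.12, -2.0 and -2.04 in LPS-treated mice. The groups did not overlap, with a mean difference of 3.64 and a two-sided exact permutation p = 0.0286, or 0.0571 with the smaller tail doubled. The control values of this ratio rest on Il10 counts of 0 and 1, so its size depends on the constant added: the difference was 5.47 with 0.1 and 2.83 with 1.

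The receptor chains of the IL-10 family showed a smaller response. Il10ra, the ligand-binding chain of the IL-10 receptor, was at 2.80 ± 0.90 CPM (SD, n = 4) in control mice and 3.31 ± 0.617 CPM (SD, n = 3) in LPS-treated mice, with overlapping groups (log2 fold change 0.24, SE 0.35, adjusted p = 0.668). Il10rb, which IL-10, IL-22 and other receptors share, overlapped too (log2 fold change 0.59, SE 0.24, adjusted p = 0.0959). Il22ra1, the IL-22 receptor chain, had 13, 20, 7 and 19 counts in control mice 1 to 4 and 78, 30 and 43 counts in LPS-treated mice 1 to 3. Every LPS-treated mouse exceeded every control mouse, and the gene was called (log2 fold change 1.63, SE 0.47, adjusted p = 0.0221). The call did not hold without LPS-treated mouse 1 (1.38, adjusted p = 0.101) or without LPS-treated mouse 3 (1.65, adjusted p = 0.0657). Il20rb, a chain of receptors for IL-20 family cytokines, was not called (log2 fold change 0.96, SE 0.64, adjusted p = 0.303). The ligand genes Il20, Il22 and Il24, the near-identical copy Il22b, whose reads could be split with Il22, and Il22ra2, which encodes the soluble IL-22 binding protein, had 0 counts in all libraries.

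Among the genes of the common gamma chain system, the shared chain itself was higher. Il2rg, the signalling chain of the receptors for IL-2, IL-4, IL-7, IL-9, IL-15 and IL-21, had 11, 1, 27 and 22 counts in control mice 1 to 4 and 179, 52 and 89 counts in LPS-treated mice 1 to 3. The groups did not overlap (log2 fold change 2.67, SE 0.59, adjusted p = 0.00519). Of its partner chains, Il2rb (log2 fold change 0.49, SE 0.62, adjusted p = 0.615), Il15ra (-0.23, SE 0.15, adjusted p = 0.303) and Il4ra (0.37, SE 0.15, adjusted p = 0.0936) were not called, though all 3 LPS values of Il4ra lay above the control values. Il15, the ligand that Il15ra presents, had 11, 26, 10 and 8 counts in control mice and 23, 3 and 0 counts in LPS-treated mice. Its groups overlapped (log2 fold change -0.94, SE 0.93, adjusted p = 0.505), and without LPS-treated mouse 1 the difference was -3.05 with an adjusted p of 0.086. The T cell marker list summed to 4.17, 4.04, 5.26 and 3.48 CPM in control mice 1 to 4 and to 13.5, 24.5 and 19.3 CPM in LPS-treated mice 1 to 3, with 3 of 7 genes tested and none at the floor. The higher sum came from Cd28 alone, which was higher, at 0.197 CPM in control mice and 17.7 CPM in LPS-treated mice. Cd4, the most abundant of the list in control mice at 2.13 CPM, was lower at 0.258 CPM, and the means of the other 5 genes were lower too, though they were not called or not tested, so the sum does not describe T cells. Of 6 NK cell markers 2 were tested and both, Gzma and Prf1, were higher, with sums of 1.84, 1.39, 0.794 and 1.06 CPM in control mice and 8.48, 9.08 and 9.34 CPM in LPS-treated mice, Gzma the most abundant and none at the floor. Gzma alone made up most of the LPS sum, at a mean of 6.08 CPM. Of the untested genes, Ncr1, Eomes and Klre1 had at most 11 counts in any library. Klrb1c was at 0.205 CPM in control mice and 0.892 CPM in LPS-treated mice. The sum therefore does not describe NK cells. The part of these cells in the receptor results was not tested.

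Other members of this system were too low to test. Il2ra, the high-affinity IL-2 receptor chain, had 0, 8, 0 and 4 counts in control mice 1 to 4 and 63, 2 and 1 counts in LPS-treated mice 1 to 3, so that a single mouse held nearly all of the LPS counts. With no filter on counts it was tested and called higher. Il7 had between 2 and 14 counts, Il7r between 0 and 8, Il21r between 1 and 18, and Il4 between 1 and 12, each with overlapping counts between the groups. Il2 had 0 counts in all libraries, and Il9, Il9r and Il21 stayed at the floor.

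Il13ra1, which pairs with the Il4ra chain to bind IL-4 and IL-13, had 405, 599, 669 and 814 counts in control mice 1 to 4 and 1529, 1507 and 1555 counts in LPS-treated mice 1 to 3. All LPS counts exceeded all control counts, also after scaling, with means of 36.7 ± 5.49 and 88.1 ± 15.3 CPM (SD, 4 and 3 mice; log2 fold change 1.26, SE 0.17, adjusted p = 1.29e-04). Its ligand Il13 and the IL-13 decoy receptor Il13ra2 were at the floor. Il3ra, the IL-3 receptor alpha chain, had a log2 fold change of 1.30 (SE 0.52) with separate groups but was not called (adjusted p = 0.0842). Il3 had 0 counts, and Il5 and Il5ra stayed at the floor.

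Il6, a central inducer of the hepatic acute phase response, was low at this time point. It had 0, 7, 0 and 0 counts in control mice 1 to 4 and 11, 9 and 10 counts in LPS-treated mice 1 to 3. Every LPS count exceeded every control count, but the gene was too low to be tested, and all of the control counts came from control mouse 2. Il11 and Il31, whose products belong to the same cytokine group, were at the floor. Il11ra1, the IL-11 receptor chain, was lower in all LPS-treated mice, at 15.8 to 20.6 CPM against 21.1 to 29.7 CPM in control mice. Its log2 fold change of -0.53 (SE 0.17, adjusted p = 0.0337) passed the p threshold but not the fold threshold, and its adjusted p exceeded 0.05 in 6 of the 7 fits without 1 mouse, up to 0.124 without LPS-treated mouse 1. Il11ra2 is a near-identical copy of Il11ra1 and had 0 counts, so reads that fit both may have been dropped or assigned to Il11ra1, and this value is uncertain.

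The IL-12 group gave little signal. Il12a, the p35 subunit of IL-12, was at the floor. Il12b, the p40 subunit that IL-12 and IL-23 share, had 6 counts in control mouse 4 and 0 in all other mice. Il23a, the p19 subunit of IL-23, had 6, 1, 0 and 0 counts in control mice 1 to 4 and 1, 3 and 8 counts in LPS-treated mice 1 to 3, while Il27, the p28 subunit of IL-27, had 5 counts in control mouse 2 and 3 in LPS-treated mouse 3. Neither separated the groups. Of their receptors, Il12rb1 had 4 to 7 counts in control mice and 8, 26 and 4 counts in LPS-treated mice. Il12rb2 and Il23r had 0 counts in all libraries. Il27ra, a receptor chain of IL-27, had 35, 15, 5 and 18 counts in control mice and 11, 5 and 8 counts in LPS-treated mice, and the overlapping groups were not called apart (log2 fold change -1.34, SE 0.72, adjusted p = 0.195).

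No IL-17 ligand was detected over the floor, while 2 of the receptor chains rose. Il17a, Il17b, Il17c, Il17f and Il25 had 0 counts in all libraries, and Il17d had at most 3. Il17ra, the chain shared by the receptors of this family, had 191, 224, 258 and 229 counts in control mice 1 to 4 and 726, 561 and 677 counts in LPS-treated mice 1 to 3. The groups were far apart relative to their spread, at 13.6 ± 1.94 and 37.2 ± 4.45 CPM (SD, 4 and 3 mice; log2 fold change 1.45, SE 0.16, adjusted p = 2.82e-05). Il17rb, a chain of the IL-25 receptor, had 72, 64, 41 and 152 counts in control mice and 391, 250 and 277 counts in LPS-treated mice. Control mouse 4 was the highest control but below all LPS-treated mice (log2 fold change 1.84, SE 0.28, adjusted p = 4.20e-04). Il17rc, the partner of Il17ra in the receptor for IL-17A and IL-17F, did not differ beyond its spread (log2 fold change 0.03, SE 0.30, adjusted p = 0.959), and its sign turned with total counts as the scaling (-0.11), without control mouse 1 (-0.21) and without LPS-treated mouse 3 (-0.03). Il17rd and Il17re exceeded the floor in some libraries but were too low to test.

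Of the remaining tested ligands, Il34, which encodes a ligand of the CSF1 receptor that is unrelated in sequence to other interleukins, was at 0.914 ± 0.234 CPM (SD, n = 4) and 1.14 ± 0.374 CPM (SD, n = 3), with overlapping groups (log2 fold change 0.32, SE 0.51, adjusted p = 0.696). Il16, whose product binds CD4, overlapped as well (log2 fold change 0.19, SE 0.47, adjusted p = 0.804).

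Levels of different genes were compared as CPM per kb of exon, using the union of exons in GENCODE M21. In control mice the highest value was that of Il1rap, at 20.6 ± 1.86 CPM per kb (SD, n = 4), followed by Il18 at 16 ± 2.87, Il13ra1 at 9.88 ± 1.48, Il1r1 at 6.91 ± 1.55, Il11ra1 at 5.84 ± 0.828 and Il15ra at 5.48 ± 0.480 CPM per kb. The last 3 of these lay within each other's spread. In LPS-treated mice the order began with Il1r1 at 34.1 ± 0.628 CPM per kb (SD, n = 3), Il13ra1 at 23.7 ± 4.12, Il1rn at 18.5 ± 6.99, Il18bp at 12.3 ± 1.46, Il18 at 9.60 ± 4.30 and Il1b at 8.17 ± 2.23 CPM per kb. Il1rap stood at 6.70 ± 0.134, Il1a at 6.18 ± 2.73 and Il1r2 at 4.78 ± 1.27 CPM per kb. Below Il1r1 most neighbours in this order did not differ beyond their spread. In control mice the mean of Il1rap was above that of Il1r1, and in LPS-treated mice below it, on this scale.

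Of the 37 members at the floor, 22 were ligands. Among all 37, 23 had 0 counts in every library and 14 had 1 to 3 counts in at least 1 library. Besides those named above, they were Il19, Il31ra and Il4i1, the last of which encodes an amino acid oxidase and not an interleukin. Il20ra exceeded the floor only in control mouse 1, with 4 counts. A gene at the floor was not detectable at this depth, which does not show that it was absent.

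Genes that act with the members but lie outside the symbol rule were counted from lists. On the IL-1 receptor and Toll side 2 of 13 genes were higher and 0 were lower: Myd88, the adaptor of IL-1 family receptors, (log2 fold change 1.01, SE 0.18, adjusted p = 0.00129), and Irak3, an inhibitory member of the IRAK family (3.85, SE 0.36, adjusted p = 6.34e-06). Of 7 genes listed for the processing of IL-1 beta and IL-18, 3 were higher, namely Nlrp3 (1.81), Pycard (2.10) and Casp4 (1.68 on the log2 scale). Casp1, the gene of caspase-1, was not called and its groups overlapped (log2 fold change 0.92, SE 0.40, adjusted p = 0.111). The groups of Nlrp3 overlapped, with 81, 33 and 14 counts in LPS-treated mice 1 to 3 and 20 counts in control mouse 4. On the JAK-STAT side 19 of 21 genes were tested, with Jak3, Stat3 and Socs3 higher and Stat5b and Socs2 lower. Jak3, the kinase that binds the common gamma chain, rose by 1.69 on the log2 scale (SE 0.38, adjusted p = 0.00607), and Socs3, a feedback inhibitor of STAT3 signalling, by 2.90 (SE 0.32, adjusted p = 2.61e-05). Of the partner chains and related cytokines, 10 of 15 were tested and 5 were higher (Csf2rb, Csf2rb2, Csf3r, Ebi3 and Osmr), while Lifr, a receptor chain for leukaemia inhibitory factor, was lower by log2 fold change (-3.13, SE 0.25, adjusted p = 1.76e-06). Ebi3 encodes the partner subunit of the Il27 product. On the IL-17 side 2 of 3 genes were higher, Nfkbiz and Zc3h12a. In all, 15 of the 52 tested genes on these lists were higher and 3 were lower, beside 7.81% and 7.31% of all genes. Some, such as Ebi3, passed the filter only through LPS-treated mice, so these counts are not evidence about the lists.

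The other cell marker lists gave the following values. Of 6 sinusoidal endothelium markers, Lyve1 and Pecam1 were higher and Clec4g was lower, with sums of 114, 144, 94.2 and 120 CPM in control mice 1 to 4 and 134, 78.9 and 76.6 CPM in LPS-treated mice 1 to 3, and Fcgr2b the most abundant in control mice and Pecam1 in LPS-treated mice. Of 5 stellate cell markers, Lrat and Reln were lower, with sums of 306, 226, 141 and 229 CPM in control mice and 190, 161 and 152 CPM in LPS-treated mice, and Dcn the most abundant. Neither of these lists had a gene at the floor. Of 5 dendritic cell markers 1 was tested and 0 were called, with Clec9a the most abundant, none at the floor, and sums of 2.76 to 5.52 CPM in control mice and 1.80 to 2.26 CPM in LPS-treated mice. Of 5 mast cell and basophil markers 0 could be tested, Mcpt4, Tpsb2 and Ms4a2 were at the floor, Cpa3 was the most abundant over all libraries, and the sums were at most 0.354 CPM. The part of these cells in the interleukin results was not tested.

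Some members lie side by side in the genome, and only runs that hold a called gene are described here. Other neighbours, such as Il17re and Il17rc or Il4ra and Il21r, held no called gene. Whether called genes lie together more than others was not tested. In the order of RefSeq genes, Il1r2, Il1r1, Il1rl2, Il1rl1, Il18r1 and Il18rap follow each other with 0 other protein-coding genes between them, and of this run Il1r2, Il1r1 and Il18rap were called higher, Il1rl2 and Il18r1 were not called and Il1rl1 was at the floor. Il1a and Il1b are also direct neighbours, and both were higher. Il36b, Il36g, Il36a, Il36rn, Il1f10 and Il1rn form another run, in which Il36g and Il1rn were called higher and the others had 0 counts. Il24, Il20, Il19 and Il10 form a run in which Il10 was higher and the other genes were at the floor.

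Promoter windows from RefSeq (GRCm38.p6) were used for 65 of the 82 members. The 250 bases before each start were searched on both strands for the NF-kappa B consensus and for the STAT site TTCNNNGAA, which occurred in 7.25% and 7.02% of 32851 windows. Of the 12 members called higher that had a window, 2 had a match to the NF-kappa B consensus (Il1r1 and Il22ra1) and 2 had a match to the STAT site (Il1r2 and Il36g). These counts are per member and the percentages are per window, so they cannot be compared directly. The 65 members had 80 windows, and the Il1r1 match was not in every window of that gene. Of the 3 members with the largest fitted rises, Il10, Il1rn and Il1r2, windows are shown for Il1rn and Il1r2, and Il10 had no entry. Il1rn has 3 windows before alternative starts, all on the + strand and with neither motif; those at chr2:24336610-24336859 and chr2:24345041-24345290 are printed, and the third overlaps the second of these and is not. The Il1r2 window lies on the + strand at chr1:40085843-40086092, and capitals mark the STAT match, which begins 111 bases before the start. A match describes the letters in the window and is not a binding site, and the absence of a match says only that these letters are not in the window.
Il1rn chr2:24336610-24336859: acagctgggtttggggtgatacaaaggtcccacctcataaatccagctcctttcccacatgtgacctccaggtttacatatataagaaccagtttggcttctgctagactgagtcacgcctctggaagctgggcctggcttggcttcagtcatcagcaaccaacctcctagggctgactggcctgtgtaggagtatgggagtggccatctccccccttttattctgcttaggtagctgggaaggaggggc
Il1rn chr2:24345041-24345290: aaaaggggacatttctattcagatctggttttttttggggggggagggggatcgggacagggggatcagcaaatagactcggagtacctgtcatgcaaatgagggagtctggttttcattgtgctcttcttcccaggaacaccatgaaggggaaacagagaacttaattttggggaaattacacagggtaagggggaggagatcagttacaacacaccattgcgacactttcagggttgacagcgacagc
Il1r2: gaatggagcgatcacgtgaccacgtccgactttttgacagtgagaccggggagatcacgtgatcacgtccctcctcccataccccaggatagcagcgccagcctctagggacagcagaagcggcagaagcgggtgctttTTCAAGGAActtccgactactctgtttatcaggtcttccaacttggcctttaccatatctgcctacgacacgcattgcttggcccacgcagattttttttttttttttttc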

How the data were processed

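Poly(A) RNA of whole liver was sequenced with strand-specific libraries. For 56691 genes and 7 mice the authors deposited a count of reads per gene, without normalization. The submitters' processing notes name cutadapt 1.9.1, HISAT2 2.2.1, HTSeq 0.6.1, DESeq2 1.34.0 and the mouse build GRCm39; the annotation release and the strand setting of the counting are not given in the sources used here. Mice were grouped by their treatment label. Counts were filtered with filterByExpr, scaled with TMM factors and tested over 13683 genes with the quasi-likelihood test of edgeR 4.0.16 in R 4.3.3, with Benjamini-Hochberg adjustment over all of them. The script was tested on simulated counts. SE is the absolute log2 fold change divided by the square root of F. DESeq2 1.42.0, other scalings, other filters and thresholds, a replicate block, leaving out each mouse and summing LPS-treated mice 2 and 3 were alternatives. Log2 ratios of counts, with 0.5 added, were compared by exact permutation tests, where p is the share of the 35 arrangements with an absolute difference at least as large, run with scipy 1.17.1. Intervals and floors cover counting error only.

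Members named with full values were those called in either direction, and, where over the floor, genes of the IL-1, IL-18, IL-33 and IL-36 systems and a list of other ligands and receptors. Other members are given by name and range. Members, lists and ratios were chosen with earlier results of these data known. Groups were compared on p-values that measure the spread between mice.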

Additional observations from a re-analysis of the deposited data

Results flagged for a closer look

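Among the 4 control mice, 1 value lay far from the other 3 in 9 of the 40 groups of control values examined. Chance gives about 1 in 20 groups for continuous values, but in 5 of the 9 the other control mice all had 0, where any count is far from the others, so this number cannot be compared with chance. In 7 of these groups the far value came from a gene with few counts. Il10 (0.0484 CPM) and Il12b (0.290 CPM) had counts in control mouse 4 and had 0 in the other control mice, and Il27 (0.316 CPM), Il36g (0.126 CPM) and Il6 (0.442 CPM) had counts in control mouse 2 and had 0 in the others. Il23a was at 0.425 CPM in control mouse 1 and at most 0.0631 CPM in the others, and Il7 was at 0.677 CPM in control mouse 4 against 0.122 to 0.212 CPM. In control mouse 2, Il18 was high at 20.9 CPM against 14.6 to 15.6 CPM, and Il1rn was low at 0.442 CPM against at least 1.28 CPM.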

How the results depend on the processing

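Of 15 called members, 13 kept their call in every alternative fit that tested them; the exceptions were Il18rap, lost without LPS-treated mouse 1, and Il22ra1, lost without LPS-treated mouse 1 or 3 and with the replicate block (1.69, adjusted p = 0.0639). Over 28 named members and 406 alternatives, 391 kept direction and side of the threshold, 4 lost the call, 4 gained it (Il18, Il1rl2 and, in 2 fits, Il33) and 7 changed sign: Il17rc with total counts (-0.11), without control mouse 1 (-0.21) and without LPS-treated mouse 3 (-0.03), and Il18r1 without control mouse 1 (0.09), control mouse 2 (0.29), LPS-treated mouse 1 (0.06) or LPS-treated mouse 3 (0.20). Without 1 mouse Il17rc spanned -0.21 to 0.14 and Il18r1 -0.88 to 0.29. At least 10 counts in every sample left 18 members to test and 8 higher, 7 of them among the 14, since Il1rn, Il1r2, Il10 and 4 others are low in control mice; all genes higher went from 1068 to 693. With no filter Il2ra was added, for 15 higher. With no fold threshold 2 members were lower (Il11ra1 was added), and 1825 genes were higher and 1773 lower instead of 1068 and 1000. Without 1 mouse, 12 to 14 members were higher and 1 to 2 lower, and 945 to 1055 genes were higher and 792 to 1059 lower. The replicate numbers did not pair the mice (correlations of same-numbered deviations 0.205, -0.0603 and 0.0801), and the replicate block gave 13 members higher and 1 lower, with 995 and 926 genes. With 0.1 added in place of 0.5, the ratios of Il1rn to Il1b (3.35), Il1r2 to Il1r1 (4.90), Il18bp to Il18 (3.43) and Il10 to Il1b (5.47) kept their direction at an adjusted p of 0.0714 in the exact test of absolute differences, because 1 other arrangement exceeded the real one for Il1r2 to Il1r1 and for Il10 to Il1b and the adjustment spans all 5 ratios (0.0357 with 1 added), and Il1rl1 to Il33 changed sign (0.066). With LPS-treated mice 2 and 3 summed they were 3.04, 4.08, 3.21 and 3.79, at an adjusted p of 0.0833 in the exact test, which had too few mice to pass 0.05. With the smaller tail doubled, the form of the first run, which absolute differences replaced after its values had been seen, the differences of 3.33, 4.11, 3.43 and 3.64 had an adjusted exact p of 0.0714. Without 1 mouse they spanned 2.81 to 3.90, 3.43 to 4.64, 3.19 to 3.86 and 3.35 to 3.98, with too few mice to pass 0.05. The cause of these changes was not tested beyond the fewer genes or mice. Depth limits members under about 10 counts, for which a difference was not detectable.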
